A study of Homo sapiens with 8 samples.

Results

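The let-7a, miR-99/100 and miR-125 families are differentiation-linked microRNAs (miRNAs) that share genomic clusters. The arms described here were chosen by name, as the listed arms of let-7a, miR-99b, miR-100, miR-125a and miR-125b, and 9 of the 9 listed arms were among the 594 miRNAs measured. They comprise 5 arms named 5p, cut from the 5′ side of the hairpin (let-7a-5p, miR-99b-5p, miR-100-5p, miR-125a-5p and miR-125b-5p), and 4 named 3p, cut from its 3′ side (let-7a-3p, miR-99b-3p, miR-100-3p and miR-125a-3p). Small RNAs were sequenced from H1 cells, an established line of human embryonic stem cells, in 2 libraries for each of 4 genotypes. These were cells homozygous for the Dicer substitution S1344L, cells hemizygous for it, Dicer-null cells and wild-type cells. The S1344L lines were engineered with CRISPR-Cas9 per the series description, and whether a line is 1 clone, or how the other allele of the hemizygous line was inactivated, is not given in the sources used here. Per the labels' protocols the RNA samples were biologically independent.

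Dicer cuts a miRNA hairpin at its loop end with a pair of RNase III domains, of which one cuts the 3p strand and the other the 5p strand. The substitution S1344L recurs in tumours, and the study addressed what it does to miRNAs. The let-7 miRNAs promote differentiation and are held low in pluripotent cells by LIN28, which binds their precursors. miR-125 is the vertebrate counterpart of lin-4, the first miRNA found in Caenorhabditis elegans, and miR-100 and miR-125 genes lie beside let-7 genes in many animals. A miRNA finds its targets mainly through its seed, bases 2 to 8, so arms that share a seed are grouped as a family.

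The mature sequences below are from RefSeq (GRCh38.p14), 5′ to 3′, with the seed in capitals; they show which members share a seed. Sequences were found for 9 of 9 members.
let-7a-5p: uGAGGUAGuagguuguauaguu
miR-99b-5p: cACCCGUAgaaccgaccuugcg
miR-100-5p: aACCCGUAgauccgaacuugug
miR-125a-5p: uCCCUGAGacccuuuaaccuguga
miR-125b-5p: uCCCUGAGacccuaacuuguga
let-7a-3p: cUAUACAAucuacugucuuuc
miR-99b-3p: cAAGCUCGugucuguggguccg
miR-100-3p: cAAGCUUGuaucuauagguaug
miR-125a-3p: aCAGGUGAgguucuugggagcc
miR-99b-5p and miR-100-5p share the seed ACCCGUA and are identical at 18 of 22 bases. miR-125a-5p, with 24 bases, and miR-125b-5p, with 22, share the seed CCCUGAG, and 21 bases align as identical. No pair of 3p members shares a seed. Reads of let-7a-5p cannot be told apart by locus, since its sequence is the same at 3 loci, and miR-125b-5p is the same at 2.

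The loci fall into clusters on the same strand. On chromosome 19 the hairpins of miR-99b (chr19:51692612-51692681, plus strand) and miR-125a (chr19:51693254-51693339, plus strand) lie in introns of SPACA6 with 572 bases between them. The let-7e hairpin lies 104 bases from that of miR-99b, and no let-7e arm was among the rows used. On chromosome 11 the hairpins of miR-100 (chr11:122152229-122152308), let-7a-2 (chr11:122146522-122146593) and miR-125b-1 (chr11:122099757-122099844) lie on the minus strand in introns of the host transcript MIR100HG. let-7a-1 lies on chromosome 9 (chr9:94175957-94176036, plus strand) in an intron of the long noncoding RNA AL158152.2, and let-7a-3 on chromosome 22 (chr22:46112749-46112822, plus strand) in an exon of MIRLET7BHG. The second miR-125b gene lies on chromosome 21 in an intron of MIR99AHG. The hairpins of the chromosome 19 cluster are shown because both their arms were measured and their 5p arms differed from the wild type by unlike amounts; capitals mark the 5p and then the 3p arm.
miR-99b hairpin: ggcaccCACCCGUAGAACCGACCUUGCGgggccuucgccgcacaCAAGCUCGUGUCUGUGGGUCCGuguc
miR-125a hairpin: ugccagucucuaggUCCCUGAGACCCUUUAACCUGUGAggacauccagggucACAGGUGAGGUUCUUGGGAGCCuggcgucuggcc
The arms are 16 bases apart in the miR-99b hairpin and 14 apart in the miR-125a hairpin, against 13 in miR-100 and 23 to 29 in the let-7a hairpins. let-7a-3p is the 3p arm of let-7a-1 and let-7a-3 only; let-7a-2 has a 3p arm of another sequence, which was not analysed here.

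The 594 miRNAs held between 1000101 and 2725756 reads in each S1344L and wild-type library, but only 165317 and 137655 reads in null libraries. Values are RPM, reads scaled to the denominator of each deposited column, which differs from the sum of miRNA reads. That sum over the denominator was 2.43 and 2.18 for homozygous libraries, 0.729 and 2.42 for hemizygous, 0.118 and 0.183 for null, and 2.09 and 2.33 for wild-type libraries. Hemizygous replicate 1 stood apart from its partner by a median of 1.94 (log2) over all miRNAs, so hemizygous results are also given without it. The 8 markers of pluripotent cells listed, miR-302, miR-367 and miR-371-373 arms, had 0 members at 0 reads in any genotype; their summed RPM was 1182074 and 1085157 in homozygous, 375836 and 1219379 in hemizygous, 61776 and 83528 in null, and 829204 and 886974 in wild-type cells. Of 12 markers of fibroblasts, 9 were measured, with sums of 14959 and 12313, 3036 and 14565, 1814 and 2768, and 30273 and 38690 RPM in the homozygous, hemizygous, null and wild-type libraries, and miR-143-3p at 0 in both null libraries. Of 8 neural markers, 7 were measured, with 32328 and 26768, 12859 and 31702, 826 and 1185, and 27023 and 22504 RPM in the same order and none at 0. The fibroblast sum was lower in both homozygous and both hemizygous libraries than in either wild-type library; its part in the results was not tested. Fewer cells of a type and less RNA per cell cannot be told apart in such bulk samples. The markers are miRNAs too, and their sums were not split by arm name. Over all 227 arms named 5p the median log2 change from the wild type was -2.26 in homozygous and -2.93 in hemizygous cells. Over all 300 arms named 3p it was 0.68 and -0.18. A lower marker sum thus cannot be told apart from a change of the marker arms themselves with Dicer genotype.

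In S1344L cells the 5p members averaged below the wild type and the 3p members above it. In homozygous cells 3 of 5 members named 5p fell (let-7a-5p, miR-99b-5p and miR-125b-5p) and 2 of 4 named 3p rose (miR-100-3p and miR-125a-3p), out of 22.1% of all 594 miRNAs that fell and 9.93% that rose. In hemizygous cells 4 members fell (let-7a-5p, miR-99b-5p, miR-100-5p and miR-125b-5p) and 1 rose, miR-100-3p; of all miRNAs 30.5% fell and 4.04% rose. These shares pool both arms. By arm, 111 of all 227 arms named 5p fell and 56 of all 300 named 3p rose in homozygous cells. In hemizygous cells 137 of these 5p arms fell and 24 of these 3p arms rose. Both comparisons use the same wild-type libraries. The members called moved with the scaling: in homozygous cells 4 rose and 4 fell with own-read or median-ratio scaling and 4 rose and 3 fell with upper quartiles, and in hemizygous cells 3 rose and 4 fell with own-read scaling and 4 rose and 3 fell with median ratios or upper quartiles. A member was called when limma's moderated test on log2(RPM + 1) gave a Benjamini-Hochberg adjusted p under 0.05 over all 594. Values did not overlap between homozygous and wild-type libraries in 9 of 9 members (81.3% of all miRNAs), and between hemizygous and wild-type libraries in 8 of 9 (53.2% of all).

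**Figure D1:**
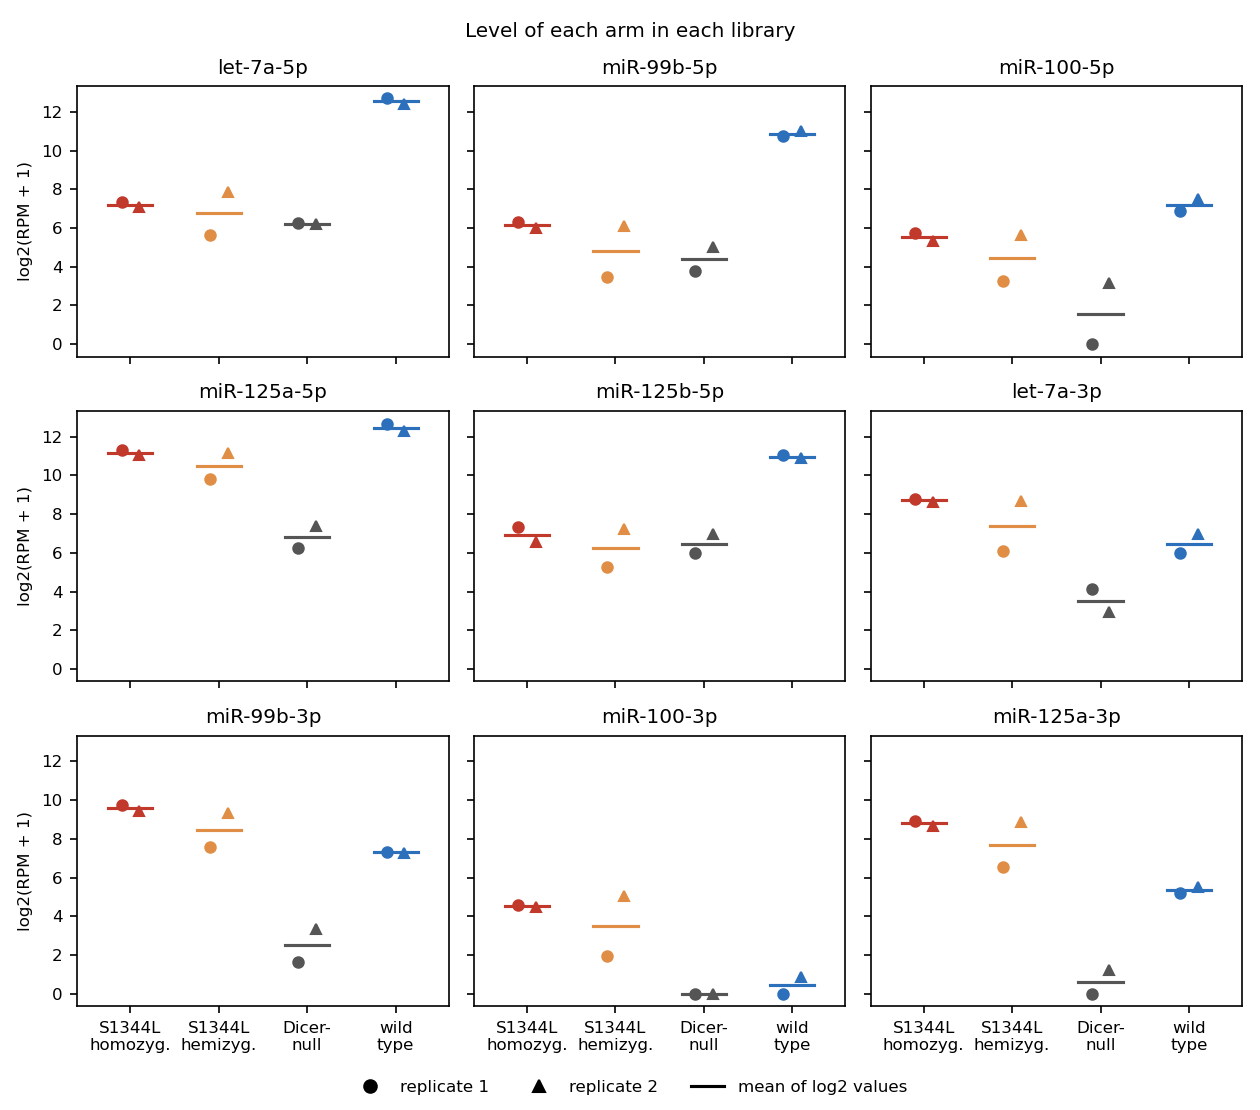
RPM on a log axis (RPM + 1) of each of the 9 arms in each library, by genotype from homozygous to wild type; each point is 1 library. let-7a-5p lies at 135 to 159.9 RPM in the homozygous libraries and at 5486 and 6638 RPM in the wild-type libraries, while miR-125a-3p lies at 409.9 and 489 RPM against 35.8 and 44.5 RPM.

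let-7a-5p, the strand of let-7a that represses its targets, had 159.9 and 135 RPM in homozygous cells, 49.6 and 229 RPM in hemizygous cells, 75.03 and 71.9 RPM in null cells, and 6638 and 5486 RPM in wild-type cells. All 6 mutant libraries were below both wild-type libraries, and the hemizygous pair spanned the homozygous and null values. It fell by 5.35 ± 0.95 in homozygous cells (log2 scale, ± SE; adjusted p = 4.08e-06, 2 libraries a group). In hemizygous cells it fell by 5.81 ± 0.95 (adjusted p = 1.76e-07), and its value was -4.72 without hemizygous replicate 1. Its rank among the 227 arms named 5p, counted from the most negative change, was 4 in homozygous and 7 in hemizygous cells. The mean in wild-type cells was 41.2 times that in homozygous cells. How the authors assigned reads that match several near-identical let-7 genes is not given in the sources used here, and the 1 of 25 other listed family arms among the rows used is no let-7, so a share of reads from other let-7 genes in this value was not tested.

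miR-99b-5p, which with miR-100-5p targets mTOR signalling components, had 77.3 and 62.5 RPM in homozygous cells, 10.2 and 67.4 RPM in hemizygous cells, 12.9 and 31.9 RPM in null cells, and 1703 and 2053 RPM in wild-type cells. The mutant libraries were all below the wild-type libraries, as for let-7a-5p. It fell by 4.73 ± 1.00 in homozygous cells (adjusted p = 6.63e-05) and fell by 6.08 ± 1.00 in hemizygous cells (adjusted p = 1.76e-07; -4.77 without hemizygous replicate 1).

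miR-125b-5p, which is expressed from 2 loci and restrains pro-apoptotic and differentiation genes in several tissues, had 158.9 and 92.6 RPM in homozygous cells, 37.9 and 149 RPM in hemizygous cells, 63.6 and 122 RPM in null cells, and 2091 and 1883 RPM in wild-type cells. The 3 mutant genotypes overlapped one another and lay below the wild type. It fell by 4.02 ± 0.97 in homozygous cells (adjusted p = 4.49e-04) and fell by 4.70 ± 0.97 in hemizygous cells (adjusted p = 1.93e-05; -3.72 without hemizygous replicate 1). Without homozygous replicate 2 the homozygous change was -3.63 and was no longer called (adjusted p = 0.0834).

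miR-125a-5p, the more abundant arm with the miR-125 seed, had 2503 and 2101 RPM in homozygous cells, 888 and 2276 RPM in hemizygous cells, 75.03 and 168 RPM in null cells, and 6354 and 5003 RPM in wild-type cells. Its S1344L libraries were below the wild-type libraries but above the null libraries. The difference was -1.30 ± 0.89 in homozygous cells (95% interval -3.04 to 0.44, adjusted p = 0.292) and -1.99 ± 0.89 in hemizygous cells (adjusted p = 0.0664; -1.31 without hemizygous replicate 1), and neither was called. The homozygous difference passed in 5 of 18 alternatives, among them those without hemizygous replicate 1 or 2 (adjusted p = 0.0343 and 0.0342). Of the 227 arms named 5p, 66.96% had a more negative change in each S1344L genotype.

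miR-100-5p was the least abundant 5p member, with 53.0 and 39.7 RPM in homozygous cells, 8.74 and 48.9 RPM in hemizygous cells, 0 and 7.99 RPM in null cells, and 115 and 179.7 RPM in wild-type cells. The S1344L and wild-type libraries did not overlap, but the gap was small beside that of miR-99b-5p, which has the same seed. The homozygous difference was -1.63 ± 1.01 (95% interval -3.61 to 0.35, adjusted p = 0.235), which was not called. In hemizygous cells it fell by 2.72 ± 1.01 (adjusted p = 0.0237), a call that was kept in 9 of 18 alternatives and was lost without hemizygous replicate 1 (-1.54, adjusted p = 0.292) and without either homozygous or either wild-type library (adjusted p of 0.0762 to 0.254). It was also lost under own-read, median-ratio and upper-quartile scaling (-1.997, -1.43 and -0.93, adjusted p = 0.316, 0.436 and 0.624) and with only the 2 groups fitted (adjusted p = 0.171).

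miR-125a-3p, the strand that is usually discarded, had 489 and 409.9 RPM in homozygous cells, 91.8 and 469 RPM in hemizygous cells, 0 and 1.33 RPM in null cells, and 35.8 and 44.5 RPM in wild-type cells. All 4 S1344L libraries were above both wild-type libraries, and the null libraries held 0 and 1 read. It rose by 3.46 ± 1.02 in homozygous cells (adjusted p = 0.00424), although leaving out either homozygous or either wild-type library ended the call (3.30 to 3.61, adjusted p of 0.0715 to 0.127). In hemizygous cells the difference was 2.35 ± 1.02 (adjusted p = 0.0573) and was not called with both libraries; without hemizygous replicate 1 it was 3.52 and was called (adjusted p = 0.00363).

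miR-100-3p was counted by few reads, 22 and 18 in homozygous, 4 and 24 in hemizygous, 0 and 0 in null, and 0 and 1 in wild-type libraries. These are 23.3 and 21.6 RPM in homozygous cells, 2.91 and 31.7 RPM in hemizygous cells, and 0 and 0.856 RPM in wild-type cells. The arm was at or near 0 in the null and wild-type libraries, and it was also low in hemizygous replicate 1, with 4 reads. The ratio of summed reads per denominator, homozygous over wild type, was 55.2 (95% interval 9.36 to 2236), and hemizygous over wild type it was 32.3 (5.33 to 1319), where both intervals cover counting error only. It rose in homozygous (adjusted p = 1.08e-04) and in hemizygous cells (adjusted p = 0.00338), and without hemizygous replicate 1 the hemizygous call was kept (adjusted p = 7.60e-04). It was lost without wild-type replicate 1 (2.61 on the log2 scale, adjusted p = 0.118).

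miR-99b-3p had 869.6 and 689 RPM in homozygous cells, 193 and 642 RPM in hemizygous cells, 2.14 and 9.32 RPM in null cells, and 161 and 155 RPM in wild-type cells. It was the most abundant 3p member in each of these genotypes but null, and exceeded its own 5p arm in all 4 S1344L libraries. The difference was 2.29 ± 0.99 in homozygous cells (adjusted p = 0.0631) and 1.15 ± 0.99 in hemizygous cells (adjusted p = 0.421; 2.02 without hemizygous replicate 1), and neither was called. let-7a-3p had 444 and 394 RPM in homozygous cells, 67.8 and 412 RPM in hemizygous cells, 16.4 and 6.65 RPM in null cells, and 62.3 and 122 RPM in wild-type cells. Its homozygous libraries were above both wild-type libraries, while its hemizygous libraries overlapped them. The difference was 2.25 ± 1.00 in homozygous cells (adjusted p = 0.0721) and 0.93 ± 1.00 in hemizygous cells (adjusted p = 0.539; 2.23, called, without hemizygous replicate 1). The homozygous differences of miR-99b-3p and let-7a-3p each passed in 8 of 18 alternatives, among them the fit without hemizygous replicate 1 (adjusted p = 0.0105 and 0.00937) and that without hemizygous replicate 2.

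Of the other arms listed for these families, miR-125b-1-3p, the 3p arm of the chromosome 11 copy of miR-125b, was measured. It had 81.6 and 69.7 RPM in homozygous cells, 26.2 and 78.0 RPM in hemizygous cells, 0 and 1.33 RPM in null cells, and 4.67 and 9.41 RPM in wild-type cells. It rose by 3.31 ± 0.98 (adjusted p = 0.00461) in homozygous and by 2.59 ± 0.98 (adjusted p = 0.0263) in hemizygous cells. Reads of miR-125b-5p cannot be assigned to this copy, so no arm ratio is given for it.

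**Figure D2:**
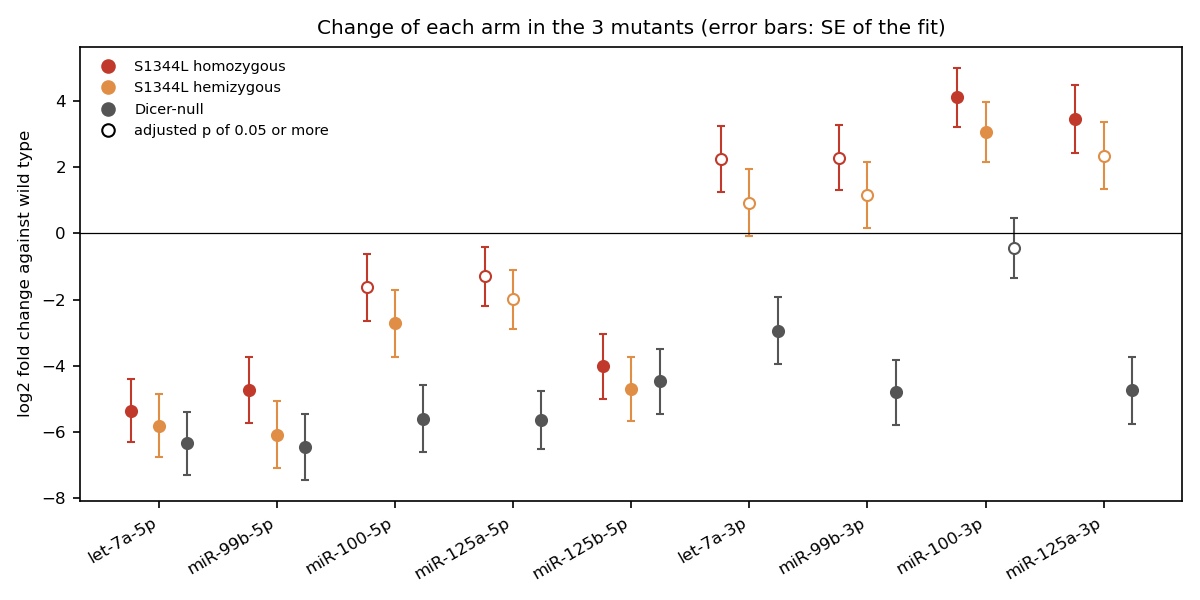
Log2 fold change against wild type of each of the 9 arms in homozygous, hemizygous and null cells. Bars are the SE of the limma fit to either side, and filled points passed an adjusted p of 0.05. In homozygous cells the 5p members lie between -5.35 and -1.30 and the 3p members between 2.25 and 4.11.

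Set beside all arms, the 5p members had a median log2 fold change of -4.02 in homozygous and -4.70 in hemizygous cells, where the median of all 227 arms named 5p was -2.26 and -2.93. Of those 227 arms, 111 fell and 1 rose in homozygous cells, and 137 fell and 0 rose in hemizygous cells. The 3p members had a median of 2.87 in homozygous and 1.75 in hemizygous cells, where all 300 arms named 3p had 0.68 and -0.18. Of those 300 arms, 56 rose and 12 fell in homozygous cells, and 24 rose and 29 fell in hemizygous cells. Both hemizygous medians over all arms include the low values of hemizygous replicate 1. The directions of the members against the wild type in homozygous and hemizygous cells were the same after scaling to each library's own miRNA reads, by median ratios and by upper quartiles, although the median of all miRNAs moved: against the wild type it was -0.05 in homozygous and -0.92 in hemizygous cells as deposited, and 0.82 in homozygous cells after upper-quartile scaling. The split of calls over all miRNAs moved with it, from 59 risen and 131 fallen in homozygous cells as deposited to 163 and 167 with median ratios and 228 and 145 with upper quartiles. In hemizygous cells it was 24 risen and 181 fallen as deposited, and 169 and 162 with median ratios.

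**Figure D3:**
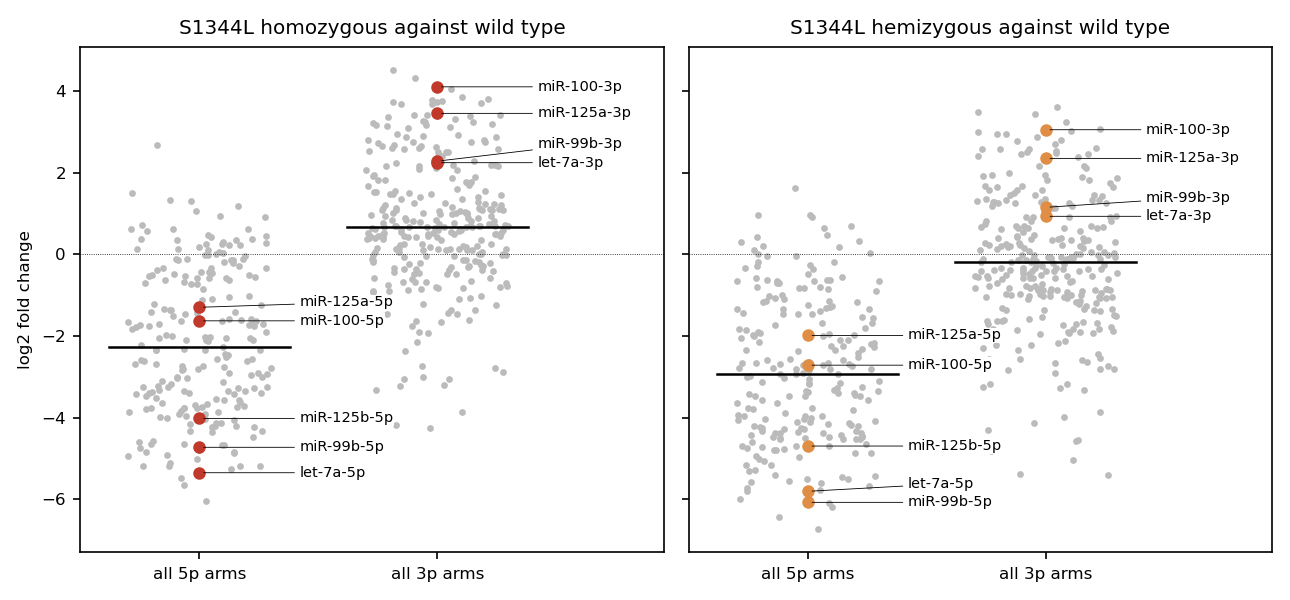
Log2 fold change against wild type of all arms named 5p and all arms named 3p, for homozygous and hemizygous cells, with the members marked by name. The members named 5p with the lowest values, let-7a-5p, miR-99b-5p and miR-125b-5p, lie at -4.02 or below in homozygous cells, against a median of -2.26 over all 5p arms.

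Before the pseudocount is added, the ratio of the arms of 1 hairpin does not depend on how a library is scaled. The log2 ratio of 3p over 5p shifted to 3p in 4 of 4 member hairpins in homozygous cells and in 4 of 4 in hemizygous cells, where 79.0% and 78.0% of 186 hairpins did. let-7a is a pair of arm names here and not 1 hairpin, since let-7a-5p comes from 3 loci and let-7a-3p from 2 of them. let-7a-3p made up 73.5% (95% Wilson interval 69.7 to 77.0) and 74.5% (70.3 to 78.4) of the reads of both let-7a arms in homozygous libraries, 57.8% (50.04 to 65.1) and 64.3% (59.97 to 68.5) in hemizygous, 18.0% (12.3 to 25.5) and 8.47% (3.67 to 18.4) in null, and 0.930% (0.748 to 1.16) and 2.18% (1.85 to 2.56) in wild-type libraries. The more abundant arm of let-7a was thus 5p in the null and wild-type libraries and 3p in the S1344L libraries. The log2 ratio shifted by 7.60 ± 0.57 in homozygous cells (adjusted p = 3.89e-07), the 3rd largest shift to 3p of 186 hairpins, and by 6.74 ± 0.57 in hemizygous cells (adjusted p = 1.07e-06).

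The miR-99b hairpin changed its more abundant arm too. Its 3p arm made up 91.8% (89.9 to 93.5) and 91.7% (89.3 to 93.6) of the reads in homozygous libraries, 94.98% (91.8 to 97.0) and 90.5% (87.7 to 92.7) in hemizygous, 14.3% (4.98 to 34.6) and 22.6% (11.4 to 39.8) in null, and 8.65% (7.59 to 9.84) and 7.02% (6.09 to 8.07) in wild-type libraries. S1344L libraries were above 90% and wild-type libraries below 9%. The shift was 7.01 ± 0.52 in homozygous (adjusted p = 3.89e-07) and 7.23 ± 0.52 in hemizygous cells (adjusted p = 3.49e-07).

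In the miR-125a and miR-100 hairpins the 3p share was higher in S1344L than in wild-type libraries, but 5p stayed the more abundant arm in every library with reads. For miR-125a it was 16.4% (15.04 to 17.8) and 16.3% (14.8 to 18.0) in homozygous libraries, 9.38% (7.93 to 11.1) and 17.1% (15.5 to 18.8) in hemizygous, 0% (0 to 3.53) and 0.787% (0.139 to 4.33) in null, and 0.561% (0.421 to 0.747) and 0.882% (0.673 to 1.15) in wild-type libraries. The shift was 4.75 ± 0.48 in homozygous (adjusted p = 4.10e-06) and 4.34 ± 0.48 in hemizygous cells (adjusted p = 8.46e-06). For miR-100, with between 16 and 211 reads per S1344L or wild-type library, the 3p share was 30.6% (21.1 to 41.95) and 35.3% (23.6 to 49.01) in homozygous, 25% (10.2 to 49.5) and 39.3% (28.1 to 51.9) in hemizygous, and 0% (0 to 2.53) and 0.474% (0.0837 to 2.64) in wild-type libraries. Its shift was 5.74 ± 0.86 in homozygous and 5.77 ± 0.86 in hemizygous cells (adjusted p = 7.03e-05 and 7.00e-05). With 0 and 1 reads of its 3p arm in wild-type libraries the size of this shift rests on the pseudocount: it was 3.89 and 4.11 with a pseudocount of 5 RPM, and 6.44 and 6.43 with 0.5 RPM. The median shift over all 186 hairpins was 3.31 in homozygous and 2.89 in hemizygous cells, and over the 4 member hairpins 6.37 and 6.26. These 8 shifts passed in every alternative that gave a value, and without hemizygous replicate 1 the hemizygous shifts were 6.94, 6.79, 6.12 and 4.83 for let-7a, miR-99b, miR-100 and miR-125a.

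**Figure D4:**
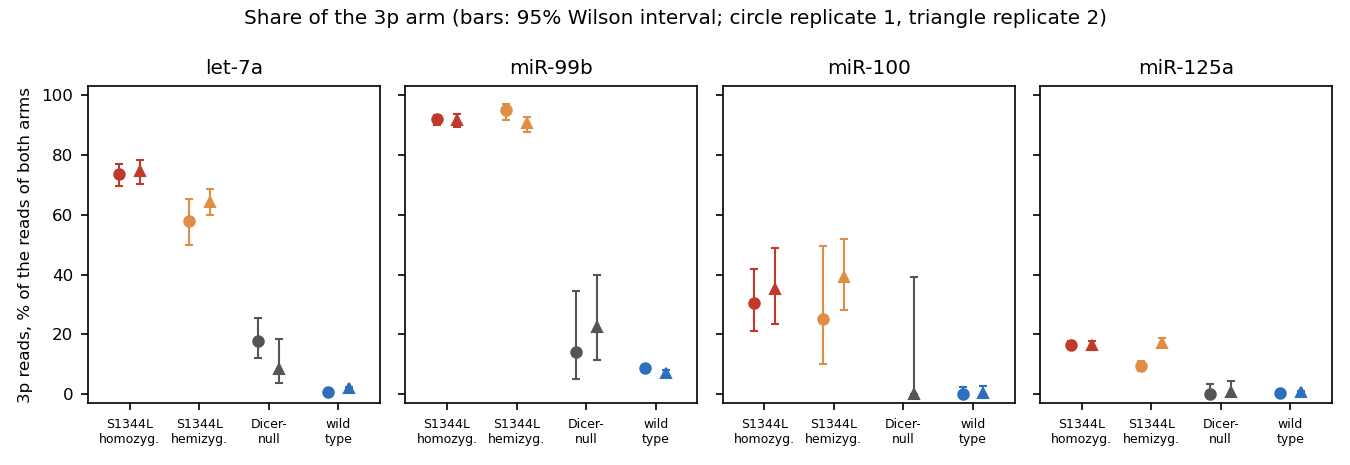
Share of the reads of both arms that came from the 3p arm, in percent, per library, for let-7a, miR-99b, miR-100 and miR-125a; bars are 95% Wilson intervals. S1344L libraries lie above wild-type libraries in all 4 hairpins, and above 50% in let-7a and miR-99b.

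Within the chromosome 19 cluster the ratio of the 5p arms of miR-125a and miR-99b differed between S1344L and wild-type cells. The log2 ratio of miR-125a-5p over miR-99b-5p was 5.00 and 5.05 in homozygous libraries, 6.31 and 5.06 in hemizygous, 2.46 and 2.36 in null, and 1.90 and 1.28 in wild-type libraries. The homozygous mean lay 3.43 above the wild-type mean and the groups did not overlap; an exact two-sided permutation test gave p = 0.333, the smallest that 2 libraries against 2 allow. The ratio of the 3p arms differed less: miR-125a-3p over miR-99b-3p was -0.83 and -0.75 in homozygous, -1.06 and -0.45 in hemizygous, -1.65 and -2.15 in null, and -2.14 and -1.78 in wild-type libraries, a homozygous difference of 1.17 (exact permutation p = 0.333).

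The balance between the members that share a seed differed between S1344L and wild-type cells. No miR-99a arm, listed beside these families, was among the rows used, so the sums and shares cover the named members only. Of the reads with the miR-125 5p seed CCCUGAG (miR-125a-5p and miR-125b-5p), miR-125a-5p made up 94.9% ± 1.24 (SD, n = 2) in homozygous, 94.9% ± 1.46 in hemizygous, 56.0% ± 2.60 in null, and 73.9% ± 1.83 in wild-type cells. The summed level of that seed was 2428 ± 331 RPM in homozygous, 1675 ± 1061 RPM in hemizygous, 214 ± 107 RPM in null, and 7665 ± 1103 RPM in wild-type cells. The wild-type sum was 3.16 times the homozygous sum, while that ratio was 17.4 for the seed ACCCGUA (miR-99b-5p and miR-100-5p) and 41.2 for let-7a-5p. For ACCCGUA the sums were 116 ± 19.9 RPM in homozygous, 67.6 ± 68.9 RPM in hemizygous, 26.4 ± 19.1 RPM in null, and 2025 ± 293 RPM in wild-type cells. miR-99b-5p made up 60.3% ± 1.29 of the ACCCGUA reads in homozygous, 55.9% ± 2.91 in hemizygous, 90% ± 14.1 in null, and 92.8% ± 1.21 in wild-type cells. The shares in both S1344L genotypes did not overlap those in the wild type for either seed (exact two-sided permutation p = 0.333 for each, the smallest possible). The null share of miR-99b-5p rests on 18 and 30 reads.

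**Figure D5:**
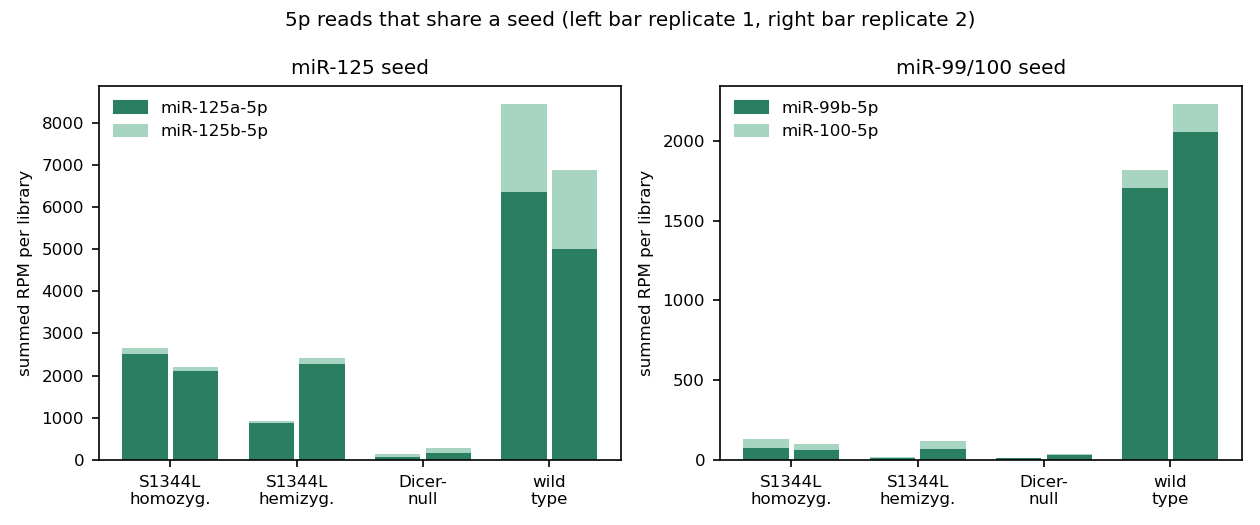
Summed RPM per library of the 5p members that share a seed (miR-125 and miR-99/100), by genotype, as bars stacked by member. In homozygous cells the miR-125 sum averages 2428 RPM against 7665 RPM in wild-type cells, and the miR-99/100 sum 116 RPM against 2025 RPM.

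The order of the members followed from these changes. In homozygous cells it ran miR-125a-5p, miR-99b-3p, miR-125a-3p, let-7a-3p, let-7a-5p, miR-125b-5p, miR-99b-5p, miR-100-5p and miR-100-3p, where miR-125a-3p and let-7a-3p overlapped, as did let-7a-5p and miR-125b-5p. In hemizygous cells the order was the same, and neighbours overlapped except miR-125a-5p, which lay above the rest. In null cells miR-125a-5p, miR-125b-5p and let-7a-5p led, of which miR-125b-5p overlapped each neighbour. In wild-type cells the order ran let-7a-5p, miR-125a-5p, miR-125b-5p, miR-99b-5p, miR-99b-3p, miR-100-5p, let-7a-3p, miR-125a-3p and miR-100-3p, with the 5p arms of let-7a and miR-125a overlapping, those of miR-125b and miR-99b overlapping, and miR-100-5p overlapping both its neighbours.

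In Dicer-null cells 8 of 9 members fell against the wild type, at a background of 87.4% of all miRNAs, and the groups did not overlap in 8 of 9 (92.8% of all). The changes of these 8 ran from -2.94 ± 1.00 for let-7a-3p (adjusted p = 0.00422) to -6.45 ± 1.00 for miR-99b-5p (adjusted p = 1.14e-09), with let-7a-5p at -6.34 ± 0.95 (adjusted p = 3.65e-10). miR-100-3p had 0 reads in both null libraries and 0 and 1 in wild-type libraries, so no change was detectable at this depth. The size of these changes depended on the scaling, since the median of all miRNAs was -4.60: scaled to each library's own miRNA reads, let-7a-3p was 0.83 and miR-125b-5p was -0.58, neither called, and miR-125b-5p turned to 0.03 with median ratios and 0.51 with upper quartiles. let-7a-5p and miR-99b-5p fell under all 3 scalings. The let-7a-3p call was also lost without null replicate 2 (-2.34) or wild-type replicate 2 (-2.45). Of the 3p over 5p ratios of the 4 member names, the test called 3 to 3p in null cells, against 19.9% of all hairpins. That of miR-100 is not read as a shift, since its 3p arm had 0 reads in both null libraries and its 5p arm 0 and 6, so that the value rests on the pseudocount. let-7a shifted by 3.41 ± 0.57 (adjusted p = 0.00128) and miR-99b by 1.65 ± 0.52 (adjusted p = 0.0273, kept in 8 of 15 alternatives). miR-125a was not called, at 0.89 ± 0.48 (adjusted p = 0.153).

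Hemizygous and homozygous S1344L cells were compared next. The libraries did not overlap in 1 of 9 members, miR-99b-3p (193 and 642 RPM in hemizygous, 869.6 and 689 RPM in homozygous cells), where 22.4% of all miRNAs did not overlap. limma called 0 of 9 members and 0.00% of all miRNAs, with 0 members and 7 miRNAs at an unadjusted p under 0.05. The differences, hemizygous minus homozygous, ran from -1.35 ± 1.00 for miR-99b-5p (95% interval -3.31 to 0.61) to -0.46 ± 0.95 for let-7a-5p (-2.32 to 1.41), so differences of several fold are not excluded. Without hemizygous replicate 1 they ran from -0.27 for miR-99b-3p to 0.64 for let-7a-5p. Without hemizygous replicate 2, 8 of 9 members and 416 of all miRNAs were called. The arm ratios of the 4 member hairpins differed by between -0.86 and 0.22 and none was called (0.00% of all hairpins).

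S1344L cells were also set against Dicer-null cells, with which they share no library. 6 of 9 members were higher in homozygous than in null cells and passed the test, at a background of 76.3%, namely the 4 members named 3p, miR-100-5p and miR-125a-5p. Against the same null libraries 6 members passed in hemizygous cells (background 64.6%), again the 4 named 3p, miR-100-5p and miR-125a-5p. By arm, 289 of all 300 arms named 3p and 121 of all 227 named 5p rose against null in homozygous cells. In hemizygous cells 273 of these 3p arms and 80 of these 5p arms did. miR-125a-3p, with 803 reads over both homozygous and 481 over both hemizygous libraries but 1 over both null libraries, had ratios of summed reads per denominator of 973 (95% interval 174 to 38460) and 486 (86.8 to 19234). For miR-100-3p, without reads in null libraries, the lower 95% limit of that ratio was 12.5 in homozygous and 7.17 in hemizygous cells, for counting error only. Taking 3 reads over both null libraries, the ratios were 16.1 and 9.43. miR-99b-3p was higher by 7.09 ± 0.99 in homozygous (adjusted p = 1.26e-11) and by 5.96 ± 0.99 in hemizygous cells (adjusted p = 2.49e-08).

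As deposited, let-7a-5p, miR-99b-5p and miR-125b-5p did not pass the test against null. The homozygous minus null difference was 0.99 ± 0.95 for let-7a-5p (95% interval -0.88 to 2.85), 1.72 ± 1.00 for miR-99b-5p (-0.24 to 3.69) and 0.45 ± 0.97 for miR-125b-5p (-1.44 to 2.35), and none was called; hemizygous minus null it was 0.53 ± 0.95, 0.37 ± 1.00 and -0.22 ± 0.97. Without hemizygous replicate 1, let-7a-5p and miR-99b-5p were called above null in homozygous (0.99 and 1.72) and in hemizygous cells (1.63 and 1.68). The call of miR-100-5p was lost without null replicate 1 in both (2.38 and 1.30) and without hemizygous replicate 2 in hemizygous cells (1.70). Scaling changed this: relative to each library's own miRNA reads the homozygous minus null differences were -2.95, -2.15 and -3.48 and passed the test, and let-7a-3p, miR-125a-5p and miR-100-5p were no longer called. Hemizygous minus null, the same scaling gave -2.62 for let-7a-5p, -2.74 for miR-99b-5p and -3.38 for miR-125b-5p, each called, and miR-125b-5p was -3.41 with median ratios and -3.39 with upper quartiles, called in both. Per library, let-7a-5p was 0.00659% and 0.00617% of the miRNA reads in homozygous, 0.00680% and 0.00944% in hemizygous, 0.0635% and 0.0392% in null, and 0.318% and 0.235% in wild-type libraries. As a share of miRNA reads, its order was thus wild type, null, then both S1344L genotypes. miR-99b-3p, miR-100-3p and miR-125a-3p rose against null under all 3 scalings. Against null, 3 of 4 member hairpins shifted to 3p in homozygous and in hemizygous cells (78.0% of all hairpins in each); miR-100, with 0 and 6 reads in null libraries, was not called.

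Other miRNAs had profiles close to those of the members. Likeness was the Euclidean distance over 8 libraries between log2(RPM + 1) values centred on each miRNA's mean, among 427 miRNAs with a mean of at least 50 RPM. Nearest to let-7a-5p were miR-218-5p (distance 0.29), miR-15a-5p (0.71) and miR-185-5p (0.96). For miR-99b-5p they were miR-181a-5p (0.43), miR-524-5p (0.79) and miR-542-5p (0.85), which like the member are arms named 5p. For miR-125a-5p they were miR-491-5p (0.37), miR-151a-3p (0.47) and miR-153-3p (0.62), of which the nearest is an arm named 5p and the other two are named 3p. For miR-125a-3p they were miR-339-3p (0.79), miR-20b-3p (0.84) and miR-106a-3p (0.89). miR-218-5p, the closest match, averaged 21.8 RPM in homozygous, 19.8 RPM in hemizygous, 10.4 RPM in null and 1020 RPM in wild-type cells.

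miR-125a-5p is longer than the other 5p members, and length was compared over all 5p arms with a RefSeq sequence, 203 of 227. The 8 arms of 24 bases had a median log2 fold change of -2.36 in homozygous cells and the 106 arms of 22 bases one of -2.29, where miR-125a-5p was at -1.30. The quartiles were -3.625 and -1.090 for 24 bases and -3.638 and -0.761 for 22 bases. By first base, the 53 arms that start with C, as miR-99b-5p does, had a median of -2.96, the 85 that start with U, as let-7a-5p and both miR-125 arms do, -2.47, the 47 that start with A, as miR-100-5p does, -2.05, and the 18 that start with G, as none of the 5p members does, -0.34. miR-125a-5p and miR-125b-5p share a seed and a first base and differed by 2.72 in their homozygous log2 fold change. A part of length or first base in these changes was not tested.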

How the data were processed

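The members and lists were chosen with earlier results of these data known. cutadapt, limma and the hg38 build are named in the submitters' processing notes; no source used here gives the authors' aligner, counting or scaling. The deposited values are log2 of reads with 0.5 added, relative to a denominator for each library (RPM). All of the 594 values per library (100%) gave whole reads within 0.001, so reads and RPM could be recovered, leaving out the added 0.5.

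RPM were tested on log2(RPM + 1) with limma 3.58.1 (R 4.3.3), group means over 8 libraries, variance trend, two-sided, after a filter of 5 RPM in 2 libraries that all 594 passed, with Benjamini-Hochberg adjustment over 594. The 3p over 5p ratio was tested likewise over 186 hairpins, paired by arm name. Errors are SE for fold changes and SD for RPM, n = 2. In the main fit of levels limma's prior degrees of freedom were infinite. The SE and p of a fold change there rest on the variance trend over all miRNAs and 8 libraries, not on that arm's own spread. For the arm ratios the prior degrees of freedom were 7.30, so each hairpin's own spread counted in part. Replicates differed by 10.6 to 85.8 times counting noise (chi-square over degrees of freedom). A count of 0 allows 3 reads, 2.14 to 3.99 RPM; intervals cover counting error only. The fit recovered known changes in counts simulated from the wild-type means, with changes in the homozygous group only. Those counts held neither the offset of hemizygous replicate 1 nor the low null levels, so the fit was not tested under these conditions. Sequences and coordinates are RefSeq's GRCh38.p14, and host genes are from GENCODE. The named miRNAs are the members, the 3 nearest profiles of 4 members and the other family arms listed. Alternatives were other pseudocounts, filters and scalings, a fit of only the 2 groups, a replicate block, and fits that each left out 1 library.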

Additional observations from a re-analysis of the deposited data

How the results depend on the processing

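Of 1314 values of single members and hairpins under the alternatives, 1150 kept direction and call. Another 58 kept direction and gained a call, and 56 kept direction and lost one. The remaining 50 changed sign or reached 0, and some of these also gained or lost a call. The planned edgeR and DESeq2 fits are not used here, although whole reads were recovered from the log2 values, so no count model was compared. Depth limits miR-100-3p and the null libraries, and hemizygous replicate 1 limits every hemizygous value. Against the wild type, 5 members were called in homozygous cells, but 8 when scaled to own miRNA reads or with median ratios, 9 when only the 2 groups were fitted, and 3 to 8 with a library left out; over all miRNAs the 190 calls became 295, 330, 373 (upper quartiles), 368 (only the 2 groups) and 39 to 284. For hemizygous cells the 5 became 7 under each of the 3 scalings, 3 with only the 2 groups and 3 to 6 with a library left out, and the 205 over all miRNAs became 331, 371, 109 and 109 to 366 (median ratios, upper quartiles, only the 2 groups, a library left out). For null cells the 8 became 4, 3 and 2 under own-read, median-ratio and upper-quartile scaling, and the 527 over all became 286 and 259 under median ratios and upper quartiles; member hairpins called, miR-100 included, went from 3 to 1 with only the 2 groups and 2 with a pseudocount of 0.5, and all hairpins from 64 to 115 with a pseudocount of 5. Hemizygous against null, 6 members became 4 with only the 2 groups and 5 to 8 with a library left out. Hemizygous against homozygous, the range with a library left out was 0 to 8 members and 0 to 416 miRNAs. The cause of these changes was not tested.

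Signs changed as follows (own-read, median-ratio, upper-quartile scaling). Null against wild type gave 0.83, 1.43 and 1.90 for let-7a-3p, and 0.026 and 0.51 for miR-125b-5p under the last pair. Hemizygous against homozygous gave 0.32, 0.43 and 0.46 for let-7a-5p, 0.10, 0.21 and 0.23 for miR-125a-5p, and 0.10, 0.21 and 0.23 for miR-125b-5p. Homozygous against null gave -2.95, -3.09 and -3.08 for let-7a-5p, -2.15, -2.29 and -2.29 for miR-99b-5p, and -3.48, -3.62 and -3.62 for miR-125b-5p. Hemizygous against null gave -2.62, -2.65 and -2.63 for let-7a-5p and -2.74, -2.77 and -2.75 for miR-99b-5p. The miR-100 arm shift turned to -0.013 (hemizygous against homozygous, pseudocount 0.5) and -0.20 (homozygous against null, pseudocount 5).

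Leaving out a library changed signs within these ranges. Null against wild type, miR-100-3p ran from -0.89 to 0. Hemizygous against wild type, let-7a-3p ran from -0.36 to 2.23. Hemizygous against homozygous, the ranges were -1.55 to 0.64 for let-7a-5p, -2.27 to 0.091 for miR-100-5p, -2.58 to 0.48 for miR-100-3p, -2.27 to 0.067 for miR-125a-3p, -1.65 to 0.30 for miR-125b-5p, and for arm shifts -0.22 to 0.66 in miR-99b, -0.32 to 0.39 in miR-100 and -0.91 to 0.078 in miR-125a. Against null they were -0.013 to 0.92 for homozygous miR-125b-5p, -0.56 to 1.63 for hemizygous let-7a-5p, -0.93 to 1.68 for miR-99b-5p, -1.20 to 0.75 for miR-125b-5p, and -0.998 to 2.17 (homozygous) and -0.96 to 2.21 (hemizygous) for the miR-100 shift.

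The labels number the replicates alike in each genotype without saying that a number pairs them. Over the 6 pairs of genotypes the replicate differences correlated at 0.612 between wild-type and hemizygous cells and between -0.105 and 0.097 in the other pairs. Whether libraries of 1 number share anything else is thus not known. With a replicate block the members called were 7 (homozygous) and 6 (hemizygous) against the wild type and were otherwise as many as without it, and all calls were 203, 227, 532, 0, 475 and 398 over the 6 comparisons (against the wild type for homozygous, hemizygous and null, then hemizygous against homozygous, then homozygous and hemizygous against null). With the null numbers crossed, chosen after seeing the data, hemizygous against null gave 6 members and 375 miRNAs. Keeping the added 0.5 read, also chosen after seeing the data, gave 5, 5 and 8 members against the wild type.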
